A study of Mus musculus with 9 samples.

Results

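The genes of cholesterol and fatty acid synthesis were chosen by name, as 33 genes of the sterol pathway, its regulators and the fatty acid pathway, and 32 of them were measured among 19938 genes. Acat2 had no probe set annotated to it alone under that name and is not analysed here. The 32 genes are 17 sterol enzymes, 6 regulators and carriers, and 9 fatty acid enzymes, each read on its brightest probe set with 1 gene symbol. Levels are log2 RMA values of Affymetrix Mouse Gene 1.0 ST arrays, so a difference of 1 is 2-fold. Brightness is used to choose or name genes, and differences in level between genes are not interpreted further. All 32 genes lay between 7.31 and 12.65 over the 9 arrays. No detection calls were used.

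The study set skin-derived precursors (SKPs), which are cells grown from dissociated skin as floating colonies, beside cells taken straight from skin. The SKP group holds 4 arrays (replicates 3, 4, 5 and 6) of spherical primary-passage colonies from mouse back skin of postnatal day 4, with no strain or genotype given for these mice. The sorted group holds 5 arrays (replicates 2, 16, 17, 18 and 20) of EGFP-positive, CD34-negative cells from Sox2:EGFP reporter mice, whose green fluorescence marks Sox2 expression; they came from back skin of the same age and were sorted into RNAlater. Per the series' design text each array is an independent preparation, and the labels name no treatment beyond culture or sorting. Sox2 was at 5.78 to 6.41 in SKPs and 8.24 to 9.25 in the sorted cells. Culture, sorting into RNAlater, and the kinds of cells that each route collects differ together between the groups and cannot be told apart. The mouse line may differ as well, since none is given for the SKP mice. Among the sorted arrays, principal component 2 over all genes (15.2% of variance) placed replicates 2 and 20 at -32.7 and -53.3, far from replicates 16, 17 and 18 (19.1 to 27.8). Cd34 RNA, whose protein the sort selected against, was at 10.19 and 10.27 on this pair and between 7.31 and 7.82 on replicates 16, 17 and 18, and at 11.14 to 11.62 in SKPs. Sox2 was also higher on this pair (9.25 and 8.97) than on replicates 16, 17 and 18 (8.61, 8.40 and 8.24). Results are therefore given with and without this pair of arrays. Because the pair was picked from these same expression values, adjusted p-values without it are descriptive and no independent support. In these bulk samples fewer cells of a type and less RNA per cell cannot be told apart either.

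Cells build cholesterol from acetyl-CoA through mevalonate, isoprenoid diphosphates, squalene and lanosterol, and build fatty acids from acetyl-CoA through malonyl-CoA. Both branches are controlled by sterol regulatory element-binding proteins (SREBPs), membrane-bound transcription factors that the escort protein Scap carries to the Golgi for release when membrane cholesterol is low. Insig proteins hold Scap and SREBP in the endoplasmic reticulum when sterols are abundant. Srebf2 encodes the SREBP best known for driving sterol genes, and Srebf1 encodes those better known for fatty acid genes. In skin these lipids supply cell membranes, sebum and the epidermal barrier.

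Promoter sequences show which recognition letters stand upstream of the genes. RefSeq windows (GRCm38.p6) were found for 25 of the 32 genes, and the 250 bases upstream of each annotated start were searched on both strands for 3 motifs. These were TCACNCCAC, a type of sterol regulatory element at which SREBPs bind, the CCAAT box of the factor NF-Y, an SREBP partner, and the E-box CACGTG, which SREBPs can also bind. The CCAAT box was in 20 of the 25 genes, against 38.8% of the 15614 measured genes with a window and 40.0% of the 7036 of these that were at least as bright as the dimmest of the 32. It was in 14 of 14 sterol enzymes with a window and in 2 of 6 fatty acid enzymes, Fasn and Elovl5. The E-box was in 6 of the 25 genes, against 8.11% of measured genes and 10.7% of the equally bright ones. TCACNCCAC was in Hmgcs1 alone, against 1.204% and 1.123%. Genes with several windows had more bases searched, 1 pair among 48 matches shared bases, and a match describes letters, not binding.

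The windows shown are those of Hmgcs1 (chr13:119690101-119690350, plus strand), which holds the TCACNCCAC match, and of Lss (chr10:76531355-76531604, plus strand), the sterol enzyme with the largest difference. Those of Insig1 (chr5:28071162-28071411, plus strand) and Insig2 (chr1:121332590-121332839, minus strand, the most upstream of its 3 windows) are shown because the differences of this pair had opposite signs. Fads2 (chr19:10101504-10101753, minus strand) is shown as the fatty acid enzyme with the largest difference, and its window held none of the motifs. All read 5′ to 3′ on the gene's strand, and capitals mark matches to the motifs on either strand.
Hmgcs1: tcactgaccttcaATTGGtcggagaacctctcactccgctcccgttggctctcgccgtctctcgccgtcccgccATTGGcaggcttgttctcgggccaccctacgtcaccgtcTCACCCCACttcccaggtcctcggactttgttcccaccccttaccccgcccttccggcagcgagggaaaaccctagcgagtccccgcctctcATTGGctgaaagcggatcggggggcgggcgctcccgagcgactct
Lss: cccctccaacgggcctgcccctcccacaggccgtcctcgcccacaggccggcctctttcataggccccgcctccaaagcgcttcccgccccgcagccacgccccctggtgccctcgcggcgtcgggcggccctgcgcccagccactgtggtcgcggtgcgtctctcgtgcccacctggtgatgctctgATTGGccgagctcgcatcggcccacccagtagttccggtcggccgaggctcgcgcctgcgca
Insig1: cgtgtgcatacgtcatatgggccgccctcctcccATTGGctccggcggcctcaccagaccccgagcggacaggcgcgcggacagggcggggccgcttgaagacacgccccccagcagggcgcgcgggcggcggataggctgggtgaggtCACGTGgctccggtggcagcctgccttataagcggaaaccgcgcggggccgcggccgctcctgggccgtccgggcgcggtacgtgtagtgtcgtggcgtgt
Insig2: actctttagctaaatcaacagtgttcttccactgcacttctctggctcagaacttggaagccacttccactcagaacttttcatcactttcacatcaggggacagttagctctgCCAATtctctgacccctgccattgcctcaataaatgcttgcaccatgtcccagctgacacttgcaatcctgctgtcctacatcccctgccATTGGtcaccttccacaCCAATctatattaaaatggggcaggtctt
Fads2: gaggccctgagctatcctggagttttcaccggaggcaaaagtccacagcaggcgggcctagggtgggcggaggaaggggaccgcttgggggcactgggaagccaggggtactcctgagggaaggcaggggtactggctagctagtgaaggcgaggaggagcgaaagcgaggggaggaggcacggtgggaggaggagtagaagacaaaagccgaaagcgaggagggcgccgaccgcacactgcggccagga
In Hmgcs1 the TCACNCCAC match began at position -137 from the annotated start, with CCAAT boxes at -237, -176 and -45. Lss held a CCAAT box at -62. Insig1 held a CCAAT box at -216 and an E-box at -101, and the Insig2 window held CCAAT boxes at -136, -46 and -29, whereas the other 2 windows of Insig2 held none of the motifs.

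Genes of both branches were higher in SKPs than in the sorted cells. Of the 32 genes, 26 rose and 0 fell at a Benjamini-Hochberg adjusted p under 0.05 by limma, a linear model with moderated variance fitted over all 19938 genes. At an unadjusted p under 0.05, 27 were higher and 0 lower. Over all genes 20.2% rose and 16.9% fell, and among the 8700 genes at least as bright as the dimmest of the 32 these shares were 30.8% and 24.9%. Centring each array on its median gave 5296 genes higher and 2932 lower in place of 4020 and 3366. At least 2-fold rises were found for 12 of the 32, against 5.46% of all genes, and 0 of the 32 fell by 2-fold or more, against 6.25%. By limb, 15 of 17 sterol enzymes, 3 of 6 regulators and 8 of 9 fatty acid enzymes rose. The median log2 fold change was 0.95 for sterol enzymes, 0.48 for regulators and 0.87 for fatty acid enzymes, against 0.07 over all genes. Every SKP array lay above every sorted array in 13 of 17 sterol enzymes and 6 of 9 fatty acid enzymes, against 18.5% of all genes, and below every sorted array in 0 of the 32, against 15.5%. The plot of fold changes shows Insig2 as the only gene with a negative value.

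**Figure D1:**
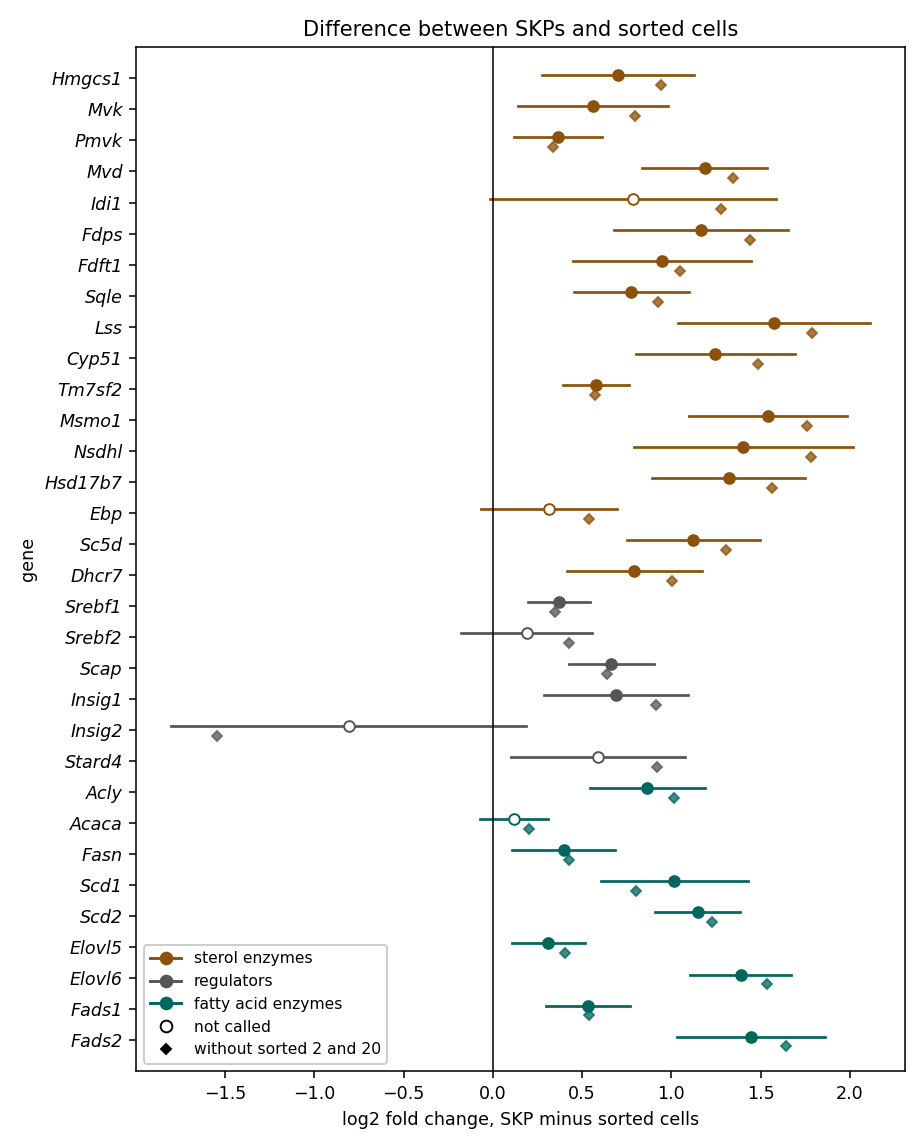
Log2 fold change (horizontal axis, SKP minus sorted cells) of each of the 32 genes (vertical axis), with 4 SKP and 5 sorted arrays. Circles are limma estimates with 95% confidence intervals as lines, filled where the gene was called at an adjusted p under 0.05 and open where it was not, and diamonds are estimates without sorted replicates 2 and 20; the filled circles run from 0.31 (Elovl5) to 1.58 (Lss), and Insig2 alone lies below 0.

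Without sorted replicates 2 and 20, 31 of the 32 genes rose and 1, Insig2, fell, where 25.4% of all genes rose and 21.1% fell. The 6 genes gained by this were Idi1, Ebp, Srebf2, Insig2, Stard4 and Acaca. The median of the sterol enzymes was then 1.28 and that of the fatty acid enzymes 0.80.

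The genes that lead from acetyl-CoA units to squalene rose in SKPs except Idi1, with Mvd and Fdps past 2-fold. Hmgcs1, which condenses acetyl-CoA into HMG-CoA, was at 11.08, 11.19, 11.57 and 11.30 in SKPs and at 10.68, 10.35, 10.39, 10.29 and 11.22 on sorted replicates 2, 16, 17, 18 and 20. Sorted replicate 20 therefore reached into the SKP range while the other sorted arrays stayed below it. Hmgcs1 rose by 0.70 ± 0.19 on the log2 scale (SE, adjusted p = 0.0157). Mvk and Pmvk, the kinases that phosphorylate mevalonate in turn, rose 1.48-fold (adjusted p = 0.0403) and 1.29-fold (adjusted p = 0.0264).

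Mvd, which decarboxylates the product of these kinases to isopentenyl diphosphate, was at 8.53 to 9.06 in SKPs and at 7.31 to 7.99 in the sorted cells, with no overlap. Its fold change was 2.28 (log2 1.19 ± 0.16, SE, adjusted p = 2.18e-04). Fdps, which joins isoprene units into farnesyl diphosphate, was at 10.45, 10.21, 10.68 and 10.46 in SKPs and at 9.33, 8.90, 9.02, 9.11 and 10.06 in the sorted replicates in the same order. All SKP arrays were higher, by 2.24-fold (log2 1.17 ± 0.22, SE, adjusted p = 0.00191). Fdft1, squalene synthase, rose 1.93-fold (adjusted p = 0.00729) and had a second probe set with a log2 difference of 1.31.

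Idi1, the isomerase between isopentenyl and dimethylallyl diphosphate, was not called. Its levels were 10.02, 10.04, 10.97 and 10.52 in SKPs and 9.95, 9.05, 9.25, 9.03 and 10.73 in the sorted cells. Replicates 2 and 20 lay just below and within the SKP range, and the other 3 sorted arrays were lower. The log2 difference was 0.78 (95% confidence interval -0.02 to 1.59, adjusted p = 0.118), and 1.07 without sorted replicate 20 (adjusted p = 0.00929, range over its alternatives 5.12e-04 to 0.264). Its second probe set gave 0.72.

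Some calls among these early enzymes hung on single arrays. Without SKP replicate 5 Hmgcs1 had a log2 difference of 0.61 (adjusted p = 0.0508). Mvk lost its call without any array other than sorted replicate 20 (differences of 0.46 to 0.60, adjusted p = 0.0613 to 0.0938), and Pmvk without SKP replicate 5 or 6 or sorted replicate 2, 17 or 18 (0.27 to 0.36, adjusted p = 0.0509 to 0.0646).

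The largest rises of the sterol branch were in the ring-forming and demethylating steps from squalene onward. Sqle, which oxidises squalene and is a flux-controlling enzyme of the late pathway, rose 1.71-fold (adjusted p = 0.00191). Lss, which closes the sterol ring to make lanosterol, was at 9.26, 9.04, 9.91 and 9.64 in SKPs and at 7.74, 7.73, 7.62, 7.68 and 8.65 in the sorted cells. Sorted replicate 20 was the highest of its group and still below every SKP array. Lss rose 2.98-fold (log2 1.58 ± 0.24, SE, adjusted p = 5.57e-04).

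Msmo1, a methyl sterol oxidase, was at 12.14, 11.98, 12.65 and 12.37 in SKPs and 10.79, 10.52, 10.60, 10.45 and 11.35 in the sorted cells. The groups did not overlap, and the rise was 2.91-fold (log2 1.54 ± 0.20, SE, adjusted p = 1.82e-04). Its partners in removing methyl groups from lanosterol moved with it. Cyp51, the lanosterol demethylase, rose 2.37-fold (adjusted p = 7.68e-04). Nsdhl, a sterol dehydrogenase, rose 2.64-fold (adjusted p = 0.00257) and Hsd17b7, the ketosteroid reductase, 2.50-fold (adjusted p = 4.10e-04). In each of these genes all 4 SKP arrays lay above all 5 sorted arrays.

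The last steps of the pathway rose too, apart from Ebp. Sc5d, a sterol desaturase, rose 2.18-fold (adjusted p = 4.79e-04) and Dhcr7, which reduces the immediate precursor of cholesterol, 1.73-fold (adjusted p = 0.00436). Tm7sf2, a sterol reductase, rose 1.49-fold, with a low spread in both groups (8.32 ± 0.13 in SKPs, SD, n = 4, and 7.75 ± 0.08 in sorted cells, n = 5, adjusted p = 3.80e-04). Ebp, the sterol isomerase, was not called, at 8.22, 8.23, 8.69 and 8.44 in SKPs and 8.33, 7.75, 7.99, 7.83 and 8.49 in the sorted cells. Here sorted replicates 2 and 20 both lay within the SKP range. The log2 difference of Ebp was 0.32 (95% confidence interval -0.06 to 0.70, adjusted p = 0.179), and 0.54 without these replicates (adjusted p = 0.00704, range over its alternatives 0.0036 to 0.368).

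**Figure D2:**
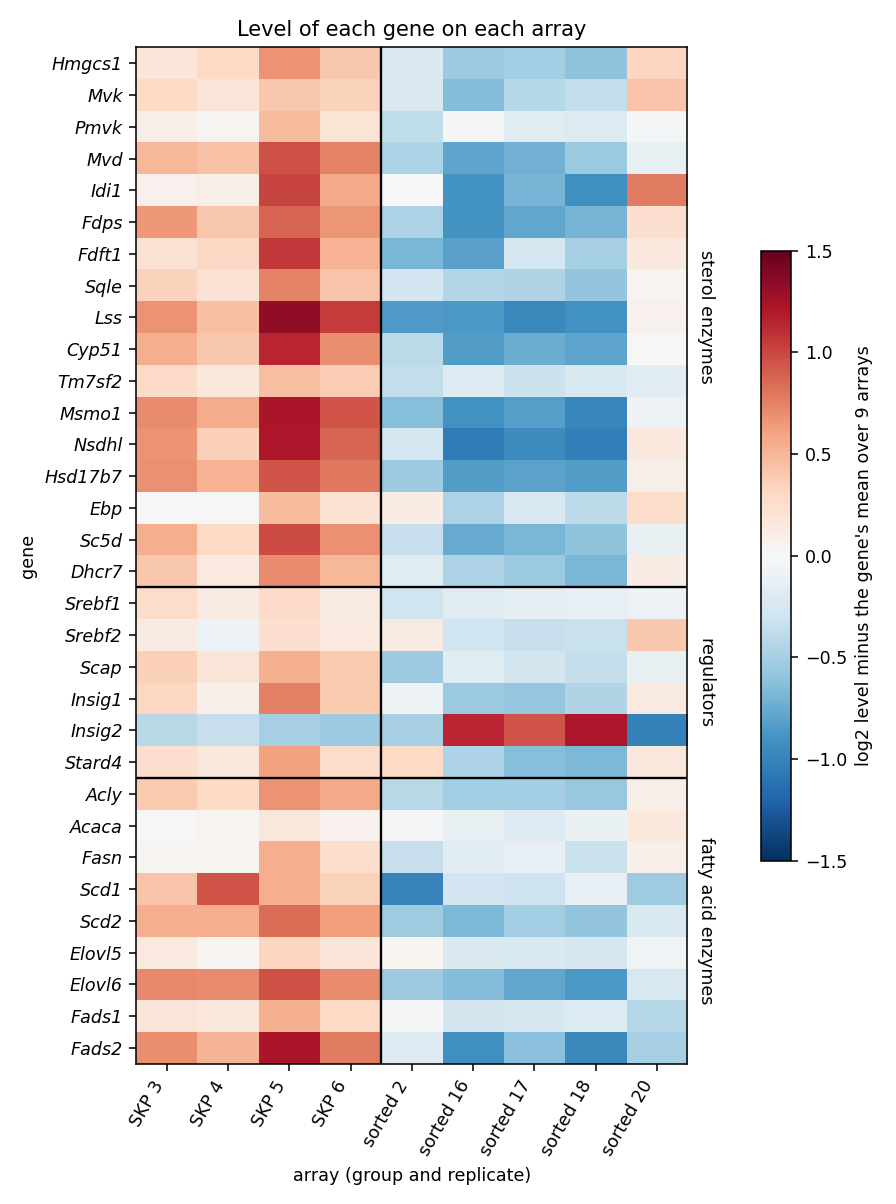
Log2 level of each gene (rows) on each of the 9 arrays (columns), minus the gene's mean over the arrays, with red above and blue below that mean; horizontal lines separate sterol enzymes, regulators and fatty acid enzymes and the vertical line separates SKPs from sorted cells. SKP replicate 5 is the reddest column, sorted replicate 20 is the palest sorted column in the sterol rows, and Insig2 runs against the other rows.

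Among the regulators the SREBP escort Scap, its retention factor Insig1 and Srebf1 rose. Scap was at 9.73, 9.55, 9.90 and 9.77 in SKPs and 8.83, 9.19, 9.10, 9.02 and 9.26 in the sorted cells, without overlap, and rose 1.58-fold (log2 0.66 ± 0.11, SE, adjusted p = 7.94e-04). Insig1, itself a well-known SREBP target, was at 11.12, 10.89, 11.56 and 11.20 in SKPs and 10.73, 10.25, 10.23, 10.36 and 10.95 in the sorted cells. Only sorted replicate 20 reached past the lowest SKP array, and Insig1 rose 1.61-fold (log2 0.69 ± 0.18, SE, adjusted p = 0.0129). Srebf1 rose by a small and even amount, 1.29-fold (9.03 ± 0.10 against 8.66 ± 0.08, SD, n = 4 and 5, adjusted p = 0.00376). Transcripts of Srebf1 were not separated here.

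Srebf2 was not called. It was at 10.09, 9.87, 10.21 and 10.11 in SKPs and 10.10, 9.66, 9.62, 9.63 and 10.37 in the sorted cells, so that sorted replicate 20 was above every SKP array and replicates 16, 17 and 18 were below every one. The log2 difference was 0.19 (95% confidence interval -0.18 to 0.56, adjusted p = 0.411), and 0.43 without replicates 2 and 20 (adjusted p = 0.00374, range over its alternatives 0.00374 to 0.626). Stard4, a cytosolic sterol carrier, had a log2 difference of 0.59 (adjusted p = 0.0583). It passed the threshold without sorted replicate 2 (0.73, adjusted p = 0.0146) or 20 (0.70, adjusted p = 0.0250), with a range over its alternatives of 1.7e-04 to 0.144.

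Insig2, the paralogue of Insig1 that is not strongly driven by SREBP in most tissues, had a difference of the opposite sign. Its levels were 9.66, 9.73, 9.58 and 9.53 in SKPs, and in the sorted cells 11.22, 11.01 and 11.28 on replicates 16, 17 and 18 but 9.58 and 9.06 on replicates 2 and 20. The sorted arrays therefore split into high and low levels, with replicate 2 within the SKP range and replicate 20 below it. With all arrays the log2 difference was -0.81 (95% confidence interval -1.80 to 0.19, adjusted p = 0.191). It was -1.15 without sorted replicate 20 (adjusted p = 0.0209) and -1.54 without both replicates (2.92-fold lower, adjusted p = 1.98e-06), in a range over its alternatives of 1.98e-06 to 0.343.

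**Figure D3:**
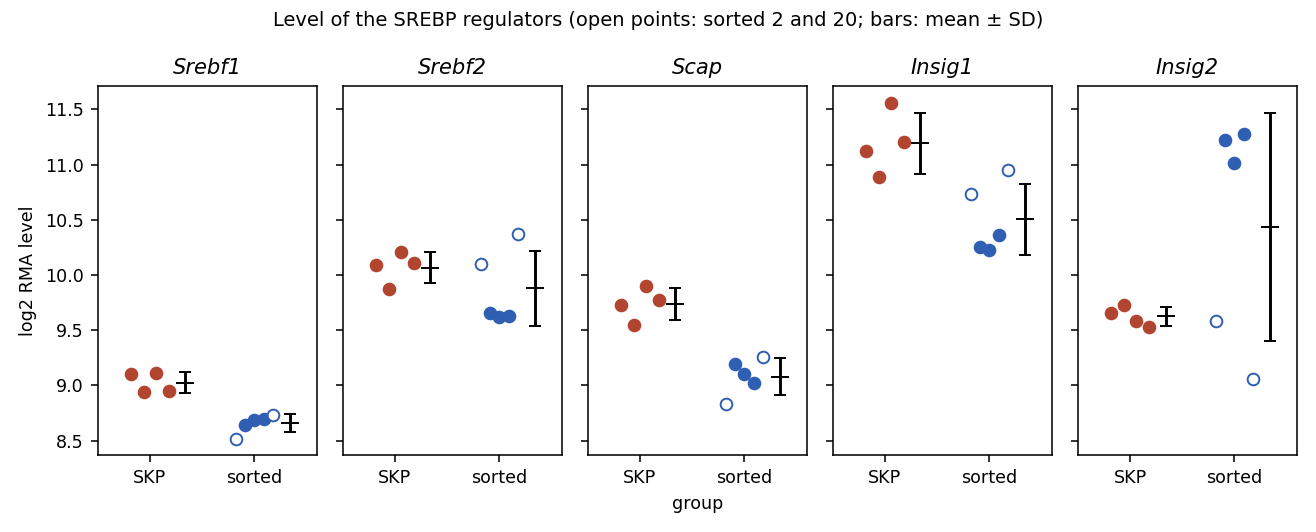
Log2 RMA level (vertical axis) of Srebf1, Srebf2, Scap, Insig1 and Insig2 in the 4 SKP and 5 sorted arrays; points are arrays, open points are sorted replicates 2 and 20, and bars are the mean and SD of all arrays of the group. In Insig2 the filled sorted points lie from 11.01 to 11.28 and the open ones at 9.06 and 9.58, whereas in Srebf2 the open points are the high ones.

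Of the 9 fatty acid enzymes, Elovl6, Fads2, Scd2 and Scd1 rose past 2-fold. Elovl6, which elongates palmitate, was at 10.25, 10.24, 10.49 and 10.24 in SKPs and 8.99, 8.88, 8.75, 8.67 and 9.29 in the sorted cells. The groups were well apart, and the rise was 2.62-fold (log2 1.39 ± 0.13, SE, adjusted p = 2.06e-05). Fads2, a front-end desaturase of polyunsaturated fatty acids, was at 10.11, 9.92, 10.64 and 10.19 against 9.22, 8.49, 8.79, 8.45 and 8.91. No sorted array reached the SKP range. It rose 2.72-fold (log2 1.44 ± 0.19, SE, adjusted p = 1.86e-04), the largest rise of the branch. Fads1, its neighbour in the genome and partner desaturase, rose 1.45-fold (adjusted p = 0.00275).

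The stearoyl-CoA desaturases make monounsaturated fatty acids, and Scd1 and Scd2 rose, with the sorted arrays in a different order in each. Scd2, the form of many non-hepatic tissues, was at 12.05, 12.05, 12.35 and 12.13 in SKPs and between 10.83 and 11.28 in the sorted cells, a rise of 2.22-fold (log2 1.15 ± 0.11, SE, adjusted p = 2.19e-05). Scd1, the form of liver, fat and sebaceous gland, was at 10.64, 11.15, 10.75 and 10.55 in SKPs and 9.21, 9.92, 9.90, 10.09 and 9.67 in the sorted cells, a rise of 2.02-fold (log2 1.02 ± 0.18, SE, adjusted p = 0.00161). In Scd1 sorted replicates 2 and 20 were the lowest of their group and SKP replicate 4 the highest of its own. Scd3, outside the 32 genes, was not called, with levels of 5.28 to 5.69 and a log2 difference of 0.17 (adjusted p = 0.115). These genes lie close together with Scd4 on chromosome 19, and whether their probes tell such paralogues apart was not tested.

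The entry enzymes differed among themselves. Acly, which makes cytosolic acetyl-CoA for both branches, was at 10.34, 10.24, 10.62 and 10.51 in SKPs and 9.53, 9.42, 9.44, 9.38 and 10.03 in the sorted cells, and rose 1.82-fold (log2 0.87 ± 0.14, SE, adjusted p = 9.31e-04). Fasn, the fatty acid synthase, was at 9.66, 9.66, 10.16 and 9.88 against 9.27, 9.45, 9.50, 9.29 and 9.70, with sorted replicate 20 inside the SKP range, and rose 1.32-fold (adjusted p = 0.0346). Acaca, the acetyl-CoA carboxylase that commits carbon to fatty acids, was not called. Its log2 difference was 0.12 (95% confidence interval -0.07 to 0.31, adjusted p = 0.308) and its second probe set gave 0.05. Elovl5, an elongase of polyunsaturated fatty acids, rose 1.24-fold (adjusted p = 0.0230).

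Fasn lost its call without SKP replicate 5 or 6 or sorted replicate 2, 16, 17 or 18 (log2 differences of 0.29 to 0.41, adjusted p = 0.0567 to 0.0862). Elovl5 lost its call without SKP replicate 5 or 6 or sorted replicate 16, 17 or 18 (0.26 to 0.31, adjusted p = 0.0547 to 0.0622).

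Sterol and fatty acid enzymes had medians of 0.95 and 0.87 and differed in how arrays of the same group varied. To set the branches side by side, each gene was centred on its mean over the 9 arrays and the genes of a branch were averaged, as a description without a test. The sterol mean was 0.40, 0.29, 0.86 and 0.59 in SKP replicates 3, 4, 5 and 6, and -0.36, -0.67, -0.59, -0.64 and 0.13 in sorted replicates 2, 16, 17, 18 and 20. The fatty acid mean was 0.35, 0.36, 0.64 and 0.42 in SKPs and -0.34, -0.43, -0.39, -0.44 and -0.19 in the sorted cells. In both branches every SKP array was above every sorted array. The sterol minus fatty acid difference ran from -0.08 to 0.22 in SKPs and was -0.03, -0.25, -0.20, -0.20 and 0.31 in the sorted cells, so that sorted replicate 20 had the highest value of all 9 arrays.

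Within the SKPs, replicate 5 was the highest array in 17 of 17 sterol enzymes and 8 of 9 fatty acid enzymes, whereas it was the highest in 27.7% of all genes. Replicate 4 was the lowest SKP array in 13 of 17 and 7 of 9, against 23.8% of all genes. Within the sorted cells replicate 20 was the highest array in 16 of 17 sterol enzymes and 5 of 9 fatty acid enzymes, against 26.1% of all genes. Both replicates 2 and 20 lay above the other 3 sorted arrays in 14 of 17 sterol enzymes and 5 of 9 fatty acid enzymes, against 22.6% of all genes. The median gap between these replicates and the other 3 was 0.55 for sterol enzymes and 0.21 for fatty acid enzymes. Insig2 and Scd1 were the only ones of the 32 genes in which both replicates lay below the other 3, which held for 26.1% of all genes.

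**Figure D4:**
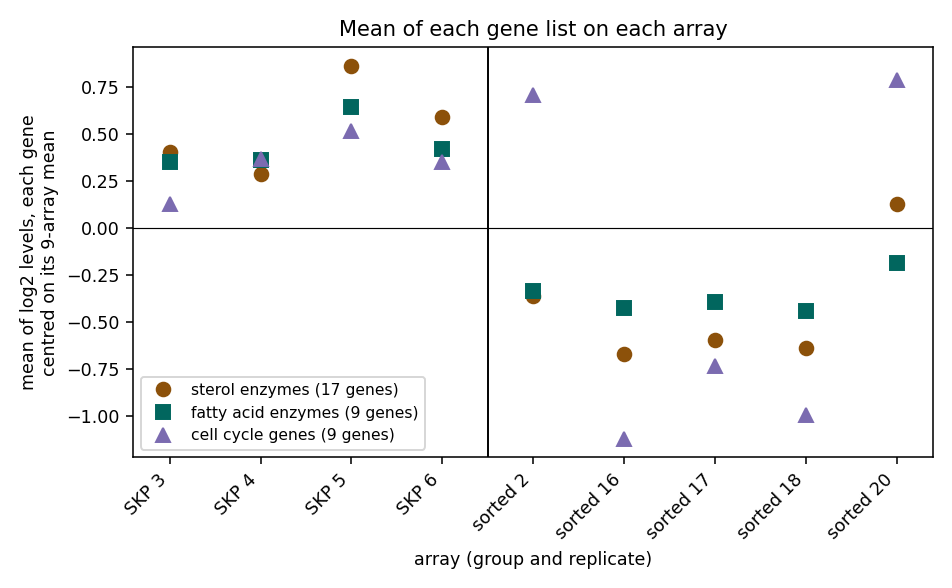
Mean log2 level of sterol enzymes, fatty acid enzymes and cell cycle genes (vertical axis, each gene centred on its mean over the 9 arrays) on each array (horizontal axis), with SKPs left of the line. Sterol means run from 0.29 to 0.86 in SKPs and from -0.67 to 0.13 in sorted cells, and the cell cycle mean is 0.71 on sorted replicate 2, 0.79 on 20 and -1.12 to -0.74 elsewhere in the sorted group.

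Cell cycle genes moved with these arrays. Of 9 measured cell cycle genes 9 were higher on both sorted replicates 2 and 20 than on the other 3 sorted arrays, against 22.6% of all genes. Between the groups 0 of 9 were called by limma, where 20.2% of all genes rose and 16.9% fell. At an unadjusted p under 0.05, 2 of the 9 were higher and 0 lower. Their median log2 difference was 0.61, in a range of -0.47 to 1.25. The lowest value, and the only negative one, was that of the proliferation marker Mki67 (-0.47, adjusted p = 0.355). Without sorted replicates 2 and 20, 8 of 9 cell cycle genes rose in SKPs and 0 fell, where 25.4% of all genes rose and 21.1% fell. The part of proliferation in the sterol result was not tested. Without these replicates the sterol median was 1.28, against 0.95 with them.

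Of 18 measured genes of lipid supply and other elongation steps 7 rose and 3 fell, where 20.2% of all genes rose and 16.9% fell, so that the count of falls is near the share over all genes. The median log2 fold change was 0.19. Without sorted replicates 2 and 20, 9 rose and 4 fell, against 25.4% and 21.1% of all genes. Hsd17b12, a reductase of the elongation cycle, rose 2.91-fold (11.14 ± 0.15 in SKPs against 9.60 ± 0.77, SD, adjusted p = 0.00499). Me1, malic enzyme, which supplies NADPH for lipid synthesis, rose 1.91-fold (adjusted p = 0.00101), and Acsl4, an acyl-CoA synthetase for polyunsaturated fatty acids, 1.88-fold (adjusted p = 6.18e-04). Elovl7, an elongase of long saturated fatty acids, fell 2.68-fold (adjusted p = 0.00539), and Gpam, which starts glycerolipid synthesis in mitochondria, 2.06-fold (adjusted p = 1.10e-04). Fads3, next to Fads2 in the genome, fell 1.44-fold (adjusted p = 0.0126), so the 3 neighbouring desaturase genes on chromosome 19 did not move alike.

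Genes of cholesterol transport, oxidation and storage held some of the largest differences among lipid genes. Of 16 measured genes 9 rose and 2 fell, with a median of 0.87, where 20.2% of all genes rose and 16.9% fell. Without sorted replicates 2 and 20, 9 rose and 3 fell, against 25.4% and 21.1%. Ch25h, which makes an oxysterol that restrains SREBP processing, was 12.3-fold higher (10.34 ± 0.42 in SKPs against 6.71 ± 0.38, SD, adjusted p = 1.81e-06). Abcg1, a sterol exporter, rose 4.40-fold (adjusted p = 6.13e-06) and Npc2, which hands cholesterol on inside lysosomes, 2.91-fold (adjusted p = 1.56e-06). Apoe, the lipoprotein of sterol export, fell 4.81-fold (10.85 ± 0.12 against 13.11 ± 0.55, SD, adjusted p = 6.13e-05), and Osbpl1a, an oxysterol-binding protein, 1.53-fold (adjusted p = 2.81e-04). Abca1, another exporter, was chosen after its values were seen. It was at 10.41, 10.46 and 10.40 on sorted replicates 16, 17 and 18, at 8.81 and 8.55 on replicates 2 and 20 and at 8.35 to 9.03 in SKPs, the same split of the sorted arrays as in Insig2 (log2 difference -0.998, adjusted p = 0.0966, and -1.70 without replicates 2 and 20, adjusted p = 2.00e-05).

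Markers of other cells also differed between the groups and among the sorted arrays, and their part in the lipid results was not tested. The counts of each list stand beside shares over all genes of 20.2% that rose and 16.9% that fell. The 14 dermal papilla genes all fell, among them Lepr, the leptin receptor, at 4.58 ± 0.38 in SKPs against 10.99 ± 1.24 in the sorted cells (SD, n = 4 and 5), with Wif1, a Wnt inhibitor, as the brightest in sorted cells (64.7-fold lower in SKPs, and 102-fold without sorted replicates 2 and 20). For genes with a group mean under 6.31, the limit of the lowest part of the table, levels are given in place of folds, since they were not shown to be above background. The mean level of the dermal papilla list was 6.34 to 6.49 in SKPs, 11.20 to 11.40 on sorted replicates 16, 17 and 18, and 10.15 and 9.66 on replicates 2 and 20. On both replicates 2 and 20, 12 of the 14 genes were below the other 3 sorted arrays, against 26.1% of all genes. The other 2, Sox2 among them, were above, against 22.6%. Of 12 skin mesenchyme genes 6 rose and 0 fell, where 20.2% of all genes rose and 16.9% fell, and without sorted replicates 2 and 20, 8 rose and 2, Pdgfra and Twist1, fell (25.4% and 21.1% of all genes). The mean level of the list was 12.45 to 12.52 in SKPs and 11.27 to 11.97 in the sorted cells. Vim was at 13.46 and 13.44, whereas Lum, a proteoglycan, was at 7.84 to 7.96 on sorted replicates 16, 17 and 18 and was 20.1-fold higher in SKPs (39-fold without replicates 2 and 20). All 10 keratinocyte genes fell, among them Dsc3 (5.99 ± 0.16 in SKPs against 10.85 ± 0.65, SD) and Krt5 (25.6-fold, and 16.4-fold without those replicates). Their mean level ran from 6.44 to 6.8 in SKPs and from 9.37 to 9.58 on sorted replicates 16, 17 and 18, and reached 10.42 on replicate 2 and 12.02 on replicate 20.

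For the counts of the next lists too, the shares over all genes were 20.2% higher and 16.9% lower. All 7 measured Schwann cell genes fell, with Erbb3 18.2-fold and Pmp22 2.04-fold lower. The mean level of the Schwann list was 7.30 to 7.55 in SKPs and 9.12 to 9.93 in the sorted cells. Of 9 melanocyte genes 7 fell, among them Tyrp1 (9.50-fold) and Dct (7.76-fold), and Mitf rose 3.05-fold; the list's mean level was 6.77 to 7.03 in SKPs and 8.01 to 8.61 in the sorted cells. All 10 myeloid genes rose, with Lyz2 at 10.69 ± 1.00 in SKPs against 6.08 ± 0.62 (SD) and Cd68 3.22-fold higher, and their mean level was 7.64, 7.05, 8.73 and 8.07 on SKP replicates 3, 4, 5 and 6 against 5.87 to 6.22 in the sorted cells. SKP replicates 5 and 4 were thus the highest and the lowest SKP arrays in this list as they were in the sterol mean. Of 10 sebocyte genes 5 fell and 0 rose by limma (5 and 1 at an unadjusted p under 0.05). The mean level of the list was 5.56 to 5.88 in SKPs and 6.58 to 6.91 in the sorted cells. In the sorted cells Krt79 (21.3-fold lower in SKPs) was the brightest, with a mean of 10.98, followed by Mc5r at 9.71. The sorted means of the other sebocyte genes were only 5.28 to 6.85. The wax synthases Awat1 and Awat2 were at 5.14 to 5.71 on every array. Of 9 adipocyte genes 1, Lpl, rose (1.99-fold) and 1, Cebpa, fell (6.66-fold), near the shares over all genes. Without sorted replicates 2 and 20, 3 rose and 1 fell, where 25.4% of all genes rose and 21.1% fell. Those that rose were Lpl (2.67-fold), Pparg (1.75-fold) and Adipoq, at 6.92 ± 0.91 in SKPs (SD) and 4.22, 4.50 and 4.81 on sorted replicates 17, 18 and 16. Cebpa was then 11.4-fold lower. The median log2 difference of the list was 0.24 with this pair and 0.70 without it. The mean level of the list was 6.92 to 7.86 in SKPs and 6.92 to 8.08 in the sorted cells.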

How the data were processed

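RNA of 9 preparations was measured on 1 Affymetrix Mouse Gene 1.0 ST array each. The deposited values are log2 levels, 1 per probe set and array, for which the submitters' processing notes name RMA (a method of background adjustment, quantile normalization and probe summary), Affymetrix Expression Console and limma, with no versions or settings. Of 35556 probe sets in the table, 21789 carry 1 gene symbol, 1621 several and 12146 none. For each of 19938 genes the probe set with 1 symbol and the highest mean over all arrays was used (999 genes had a choice). Symbols were updated by Entrez identifier (21698 probe sets matched), and 0 changed. Array medians were 7.15 to 7.30. No detection calls were used, and the number of arrays limits the precision.

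SKP and sorted arrays were compared with limma 3.58.1 in R 4.3.3 (lmFit, eBayes, two-sided), with Benjamini-Hochberg adjustment over all genes and a threshold of 0.05. Confidence intervals of 95% are for single genes and not adjusted. The calculation was tested on simulated arrays of the same design, with 50 changed genes at each size. It recovered 52% of changes of log2 0.585, 80% of 1.0, 96% of 2.0 and 100% of 4.0, with 6 false calls. Small changes can therefore go uncalled. Figures used matplotlib 3.10.9 in Python 3.11.15. The series' design text calls the preparations independent.

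The genes, lists and tests were chosen with earlier results of these data known. Named were all 32 measured genes. From the 2 wider lipid lists the 3 largest called changes each way were named, and from each marker list the largest called change each way and the gene brightest in sorted cells. The sebocyte genes Awat1, Awat2 and Scd3, the mesenchyme genes Pdgfra and Twist1, and Abca1 and Mc5r were chosen after their values were seen. So were the adipocyte genes Adipoq and Pparg. The alternatives were quantile normalization, median centring, leaving out genes of low mean level (log2 under 6.31), means over probe sets, single probe sets, array weights, a robust eBayes variance model with a trend, an adjusted p under 0.01, and leaving out each array or sorted replicates 2 and 20.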

Additional observations from a re-analysis of the deposited data

Results flagged for a closer look

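In 3 of 64 combinations of gene and group, 1 array stood off from the others by more than Dixon's limit at 95%, and chance alone gives about 1 in 20 such combinations. Lss was at 8.65 on sorted replicate 20, with the next sorted array at 7.74, a gap of 0.883 of the range of the group. Acly was at 10.03 on sorted replicate 20, with the next at 9.53 and a gap of 0.769 of the range. Elovl6 was at 10.49 on SKP replicate 5, with the next at 10.25 and a gap of 0.929 of the range.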

How the results depend on the processing

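All 32 genes kept the sign of their difference under every alternative run, and 20 kept their call as well. Median centring called 5296 genes higher and 2932 lower, in place of 4020 and 3366. Array weights called 6145 genes higher, and 5 regulators higher and 1 lower in place of 3 and 0. Leaving out sorted replicates 2 and 20 gave the same 5 and 1, and moved the sterol median from 0.95 to 1.28; both settings brought Idi1, Ebp, Srebf2, Insig2, Stard4 and Acaca past the threshold. Leaving out 1 array gave 12 to 16 sterol enzymes, 3 to 4 regulators and 6 to 8 fatty acid enzymes higher, 0 to 1 regulators lower (Insig2, without sorted replicate 20), and sterol medians of 0.77 to 1.09. At an adjusted p under 0.01 Hmgcs1, Mvk, Pmvk, Insig1, Fasn and Elovl5 were no longer called. Stard4 was called after quantile normalization (adjusted p = 0.0455) and median centring (0.0396), and without genes of low mean level (0.0461). No paired analysis was possible because the groups share no replicate number. With 4 and 5 arrays, small differences such as those of Acaca and Srebf2 have intervals that include 0.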

Other observations

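Mc5r, a melanocortin receptor listed here for sebaceous glands, was at 11.12 to 11.13 on sorted replicates 16, 17 and 18, at 7.84 and 7.32 on replicates 2 and 20 and at 5.44 to 6.33 in SKPs. It was chosen after its values were seen. Among the sorted arrays it was thus high and low on the same arrays as Insig2 and Abca1.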
